A study of Mus musculus with 8 samples.

Results

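Anaplastic lymphoma kinase (Alk), its close relative leukocyte tyrosine kinase (Ltk), the growth factors pleiotrophin (Ptn) and midkine (Mdk), and their receptor phosphatase Ptprz1 were followed by single-nucleus RNA sequencing of mouse primary visual cortex (V1). The members were picked by symbol, 5 of the 26711 features in the table, and all 5 were found. The choice came from the genotype difference in astrocytes of normally reared mice, where Alk was among the genes that stood out, so the 5 values of that contrast are given as a description with no test. Levels across cell types, on which the choice also drew, are treated in the same way.

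ALK and LTK are receptor tyrosine kinases of one family, and the small cytokines ALKAL1 and ALKAL2 are their established activating ligands. Pleiotrophin and midkine are secreted heparin-binding growth factors that bind the chondroitin sulphate chains of PTPRZ1, a receptor-type tyrosine phosphatase of glial cells. Ligand binding is known to cluster PTPRZ1 and to lower its phosphatase activity, which leaves substrates such as ALK and FYN more phosphorylated. In the brain, pleiotrophin is known as a factor of glia and of the vessel wall that promotes neurite outgrowth, and PTPRZ1 as a marker of astrocytes and of oligodendrocyte precursor cells (OPCs).

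All mice carried floxed alleles of Nr3c1, which encodes the glucocorticoid receptor (GR), and were injected at birth with an AAV under the astrocyte promoter GfaABC1D. The vector carried Cre in the GR-KO groups and ΔCre, an inactive form, in the GR-Con groups, each linked to a membrane-targeted EGFP. Mice were kept in normal rearing (NR) or dark rearing (DR) and taken at postnatal day 21. Each of the 4 groups, GR-Con and GR-KO in either rearing, held 2 libraries, 1 from a male and 1 from a female. According to the study's methods the nuclei sorted for sequencing were GFP-negative. Whether this sort depleted nuclei with strong vector expression was not tested. The sequenced astrocytes of the GR-KO groups need not all carry the deletion.

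The 8 libraries held 9517 to 15161 nuclei and 168632129 to 288774016 unique molecular identifiers (UMIs, each a counted RNA molecule) each, over 20 deposited cell types. Astrocytes numbered 924 to 1794 nuclei per library and 9486 in all. Nuclei were deepest in NR GR-KO, at median UMIs per nucleus of 22828 (male) and 29223 (female). The medians were 14928 and 14861 in DR GR-KO and 15884 to 20161 in GR-Con. In astrocytes they were 8662 and 12124 in NR GR-KO and 4889 to 7199 in the other groups. Depth thus differed between the groups, and its part in the fold changes was not tested. By the mean of the 8 libraries, 38 of 38 marker genes were highest in a type of the class that they mark. Excitatory and inhibitory neuron types each counted as 1 class, and Erbb4 was highest in chandelier cells, an interneuron type with 70 nuclei in all. A total of 1220 of 101098 barcodes occurred in more than 1 library. Levels are given as CPM, the UMIs of a gene per 1000000 UMIs summed over the nuclei of a cell type in a library, and a cell type was used where a library held at least 10 of its nuclei. The astrocyte nuclei with a Cre UMI numbered 0 in each of the 4 GR-Con libraries, and 68 (NR male), 37 (NR female), 53 (DR male) and 42 (DR female) in the GR-KO libraries. Nr3c1 itself measured 231 and 221 CPM in NR GR-Con astrocytes, 284 and 268 in NR GR-KO, 263 and 207 in DR GR-Con, and 274 and 275 in DR GR-KO, but counts over the whole gene do not check the loss of an exon. The pair of DR GR-Con libraries stood apart from each other in astrocytes, and the tested astrocyte values of the members and of the called pathway genes that rest on them are also given without each.

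On the GRCm38 assembly, Alk lies on the minus strand at chr17:71868972-72604627, a span of 735656 bases that overlaps 4 other annotated genes, so some intronic UMIs may not be its own. The other members overlap 0 annotated genes. Ltk is at chr2:119751320-119760431, Ptn at chr6:36714929-36810220 and Mdk at chr2:91929805-91932297, all on the minus strand, and Ptprz1 at chr6:22875502-23052916 on the plus strand. RefSeq promoter sequence (GRCm38.p6) was matched for 4 of the 5, and the 250 bases before each start were searched on both strands for AGAACA, the half-site of the GR recognition element. Ptn held 1 match, 171 bases before its RefSeq start, and Alk, Ltk and Ptprz1 held 0. The same letters occurred in 5284 of 32851 promoters (16.1%), so a match in 1 of 4 promoters is a description and not a site. The part of the Ptn window that lies outside the annotated gene, chr6:36810221-36810429, is shown because Ptn was the only member promoter with a match. It is written 5′ to 3′ on the minus strand with the half-site in capitals.
Ptn upstream region: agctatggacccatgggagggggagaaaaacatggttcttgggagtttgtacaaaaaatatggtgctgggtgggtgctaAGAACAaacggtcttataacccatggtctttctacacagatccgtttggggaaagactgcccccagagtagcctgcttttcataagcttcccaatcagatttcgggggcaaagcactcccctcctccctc

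Alk was a gene of interneurons and OPCs in this tissue. In Lamp5 interneurons, a type of superficial inhibitory cell, it measured 1632 CPM ± 135 (SD, n = 8 libraries), and the lowest library (1497) lay above every library of the next type. Chandelier cells (ChC) followed at 497 CPM ± 73.9 (SD, n = 3), then Pvalb interneurons at 432 ± 56.5, Sst interneurons at 302 ± 101 and OPCs at 258 ± 44.9 (SD, n = 8 each), and these neighbours overlapped. Vip interneurons at 149 CPM ± 27.4 overlapped neither OPCs above them nor vascular leptomeningeal cells (VLMC, 80.0 ± 24.7, SD, n = 7) below. Oligodendrocytes measured 52.8 CPM ± 17.7, with the DR GR-Con female at 11.7 and the other 7 libraries at 52.2 to 70.3. Astrocytes came next at 47.9 CPM ± 31.7 (SD, n = 8), with libraries spread both between and within groups, and held 2.86% of the 107478 Alk UMIs. Excitatory neurons were among the lowest, at means of 1.11 to 6.61 CPM by type except for the L5PT type (layer 5 pyramidal tract neurons), at 25.5 ± 16.0.

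Ltk had the opposite arrangement and was carried by excitatory neurons. Upper-layer L2/3 neurons measured 33.3 CPM ± 2.72 (range 30.0 to 37.7, n = 8), above every library of the next type. L5PT (22.6 CPM), L5IT (21.7) and L6IT (19.7) neurons, with L4 neurons among them, overlapped one another. Astrocytes stood at 1.87 CPM ± 0.77, which rested on 5 to 34 Ltk UMIs in a library.

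The ligand genes differed in where they were found. Ptn was highest in smooth muscle cells and pericytes (1567 CPM ± 798, SD, n = 6), astrocytes (1430 ± 402, n = 8) and VLMC (1339 ± 441, n = 7), which overlapped. Oligodendrocytes at 918 CPM ± 107 did not overlap OPCs at 515 ± 54.5. Among neurons Ptn was highest in L4 (303 CPM ± 35.8), L2/3 (235 ± 62.3) and L5IT (178), and as low as 24.1 CPM in L6CT and 13.96 in chandelier cells (n = 3). Mdk was sparse, with 3349 UMIs in all libraries, and measured 7.05 CPM ± 7.15 in VLMC, 6.04 ± 1.33 in astrocytes, 4.31 ± 1.43 in OPCs and at most 2.41 elsewhere. The VLMC mean rested on 0 to 4 Mdk UMIs in a library. By the median, VLMC (2.79 CPM) lay below astrocytes (6.29) and OPCs (4.60). The ALK cytokine genes were sparse as well, with 4901 UMIs for Alkal2 and 679 for Alkal1. Alkal2 reached 17.3 CPM ± 4.24 in Pvalb interneurons and 1.79 ± 0.27 in astrocytes, and Alkal1 at most 1.03.

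Ptprz1 was highest in OPCs, astrocytes and Vip interneurons. OPCs measured 3034 CPM ± 97.4, astrocytes 2439 ± 221 and Vip interneurons 546 ± 38.5 (SD, n = 8 each), and none of these overlapped the next type in the order. Astrocytes held 55.5% of its 279252 UMIs. Oligodendrocytes measured 156 CPM ± 42.7 and Lamp5 interneurons 143 ± 16.3, whereas L4 (8.20) and L6CT (8.28) neurons and chandelier cells (5.75, n = 3) were lowest.

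**Figure D1:**
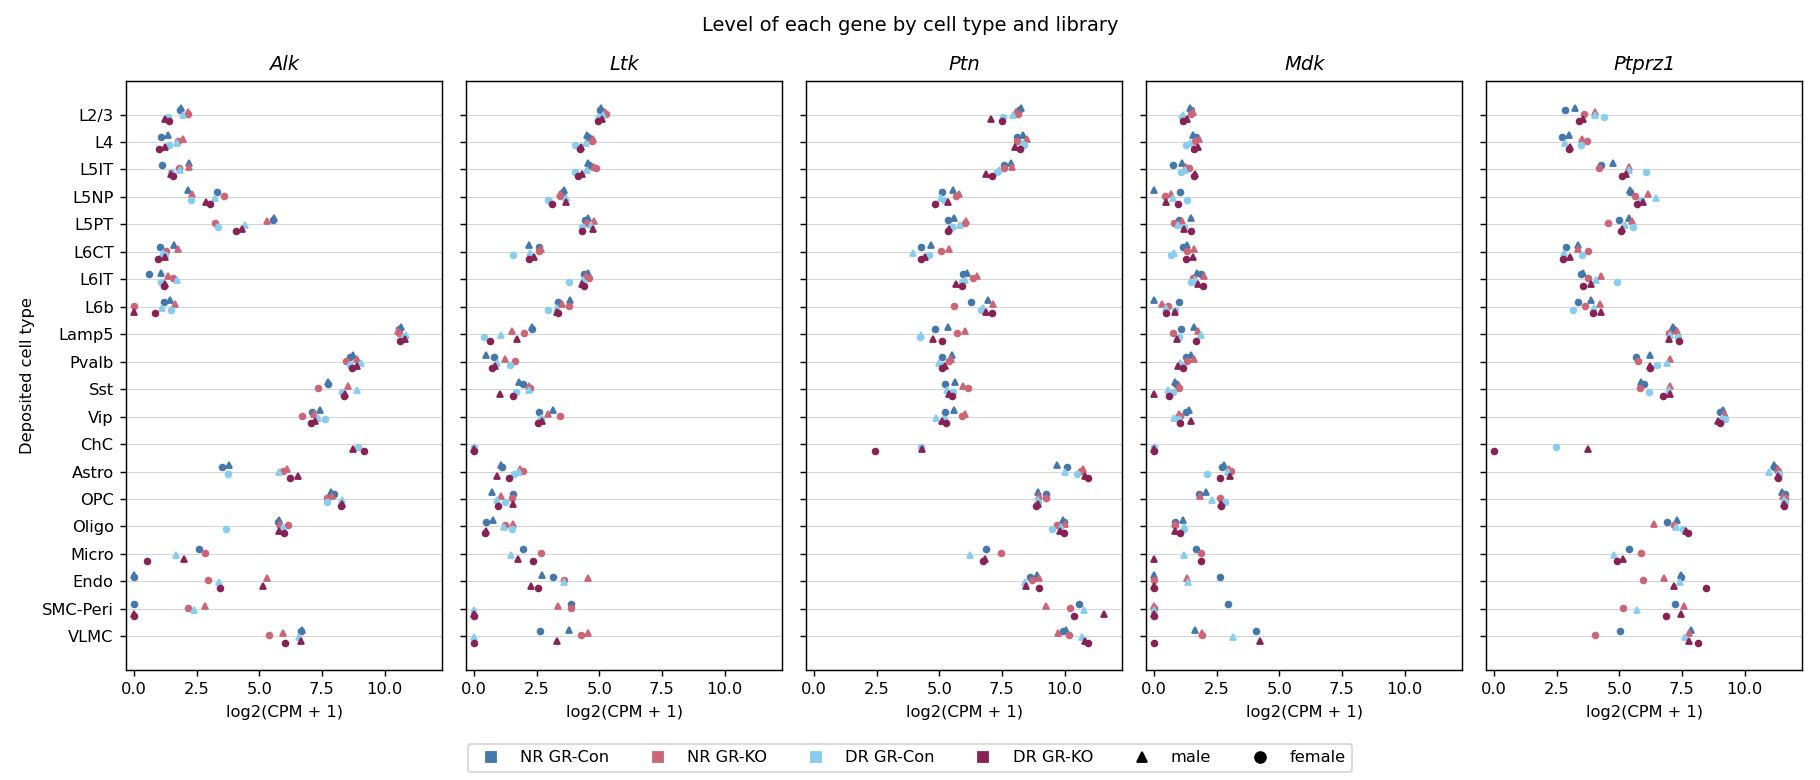
Level of Alk, Ltk, Ptn, Mdk and Ptprz1 as log2(CPM + 1), 1 panel a gene, in each deposited cell type (rows), with 1 point a library, coloured by group and shaped by sex. Alk is highest in Lamp5 interneurons (mean 1632 CPM) and Ptprz1 in OPCs (3034 CPM), and the 8 astrocyte points of Alk are spread widely.

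The genes most like each member were sought by Pearson correlation of log2(CPM + 1) over 120 sums, 15 cell types in 8 libraries. The search covered 11742 genes (11743 for Mdk) with a mean of at least 10 CPM in at least 1 of these types. The points share libraries and depth, so r is a description. For Alk the most correlated genes were Afap1 (r = 0.96), Arhgef6 (0.93) and the receptor gene Erbb4 (0.91). For Ltk they were the potassium channel Kcnh3 (0.90), Itpka (0.89) and Lingo1 (0.88). Ptn was followed by Csad, an enzyme of taurine synthesis (0.86), Rab31 (0.85) and Gm47271 (0.85), Mdk by Tor3a (0.79), Il17rd (0.78) and AW047730 (0.78), and Ptprz1 by Zbtb20 (0.93), Mtss2 (0.93) and Gsap (0.92). Between members, r was −0.71 for Alk and Ltk and 0.66 for Alk and Ptprz1.

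In normally reared astrocytes Alk and Ptn were higher in GR-KO than in GR-Con, and Ptprz1 was nearly level. Ltk and Mdk were at very low counts. Alk measured 13.0 CPM in the male and 10.3 in the female NR GR-Con library, against 68.8 and 60.2 in NR GR-KO. The groups did not overlap, and the log2 fold change was 2.40 (SE 0.18). Ptn measured 836 and 1084 CPM in NR GR-Con and 1696 and 1587 in NR GR-KO, again without overlap, with a log2 fold change of 0.71 (SE 0.19). Both genes had their lowest astrocyte group means in NR GR-Con mice. Ltk went from 1.10 and 1.19 CPM to 2.61 and 2.93 (log2 fold change 1.21, SE 0.43), Mdk from 5.89 and 5.53 to 6.99 and 7.42 (0.28, SE 0.24; −0.08 without the nuclei richest in neuron markers), and Ptprz1 from 2326 and 2298 to 2556 and 2592 (0.09, SE 0.16). In this contrast 7.11% of the 14493 genes tested in astrocytes passed an adjusted p of 0.05. The members were selected on it, and nothing is read from that share. Ptn was also named by the study from these libraries.

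The dark-reared libraries took no part in the NR genotype difference that led to the choice, but the levels across cell types include them. In dark-reared mice Alk and Ptn had higher means in GR-KO astrocytes. Neither passed the test in the fit of all 4 libraries without a further term. Alk measured 54.4 CPM in the DR GR-Con male and 12.6 in the DR GR-Con female, and 91.3 and 72.8 in the DR GR-KO male and female. The GR-KO libraries lay above both GR-Con libraries, and the difference hinged on a DR GR-Con pair whose values lay far apart. The log2 fold change was 1.29 (SE 0.60, 95% interval 0.12 to 2.47; edgeR likelihood ratio test, adjusted p = 0.667). Without the DR GR-Con male it was 2.75 (SE 0.20, adjusted p = 1.98e-39), and without the DR GR-Con female 0.58 (SE 0.14, adjusted p = 0.00191), a lone library being assumed to vary like the other group. Leaving out the DR GR-KO male or female gave 1.15 or 1.44, not called. With the sex of the library as a term, which compares the male with the male and the female with the female, it was 1.63 (SE 0.37, adjusted p = 0.002).

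Ptn measured 1040 and 1448 CPM in DR GR-Con and 1775 and 1972 in DR GR-KO astrocytes, without overlap. Its log2 fold change was 0.62 (SE 0.24, 95% interval 0.16 to 1.08, adjusted p = 0.359 by the same edgeR test), 0.42 without the DR GR-Con male (adjusted p = 0.0686) and 0.85 without the DR GR-Con female (adjusted p = 0.000224). With the sex term it was 0.63 (adjusted p = 0.0446), and GR-KO lay above GR-Con within each sex for both genes. Ptprz1, the receptor of pleiotrophin, measured 1991 and 2670 CPM against 2540 and 2535 (log2 fold change 0.15, 95% interval −0.29 to 0.58). Ltk (2.51 and 2.03 against 0.92 and 1.67 CPM, log2 fold change −0.75, SE 0.53) and Mdk (6.70 and 3.38 against 7.14 and 5.29 CPM, 0.29, SE 0.44) did not pass either. Without the DR GR-Con male or female these values were −0.0224 and 0.35 for Ptprz1, −0.54 and −0.90 for Ltk, and 0.91 and −0.13 for Mdk, none of them called. In edgeR's test 0 of the 5 were called, where 0.736% of 14139 genes were, 2 of the 5 had an unadjusted p under 0.05, and the quasi-likelihood F-test and DESeq2 also called 0.

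**Figure D2:**
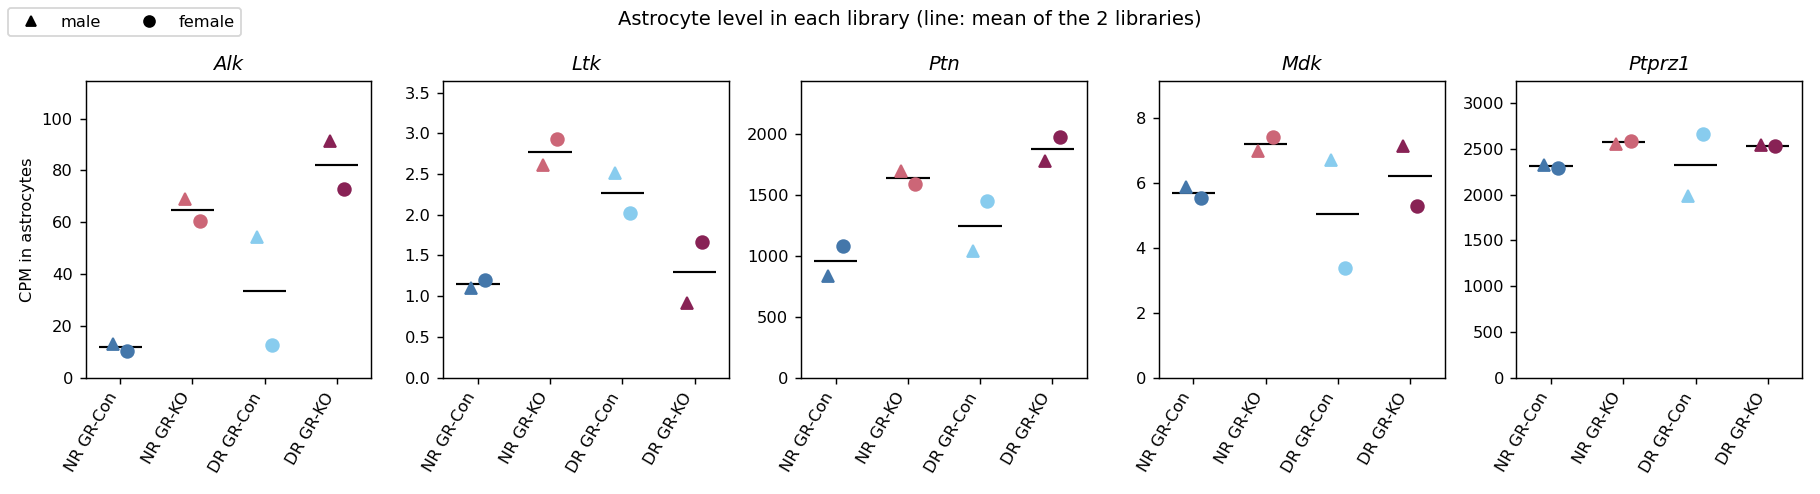
CPM of each gene in astrocytes (vertical axis, from 0, on its own scale in each panel) by group, with 1 point a library (triangle male, circle female) and a line at the mean of the 2 libraries. Both GR-KO groups lie above the GR-Con group of the same rearing for Alk and Ptn, and the DR GR-Con male (54.4 CPM) lies near the GR-KO libraries for Alk.

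From NR to DR the astrocyte values are given with no test, because the NR astrocyte libraries led to the choice of the members. In GR-Con, Alk went from a mean of 11.7 to 33.5 CPM (log2 fold change 1.53), although the DR GR-Con female (12.6) lay inside the NR GR-Con range. In GR-KO it went from 64.5 to 82.1 CPM (0.42). In GR-Con, Ptn had a log2 fold change of 0.35 (SE 0.26), Ltk 0.98, Mdk −0.17 and Ptprz1 −0.00. Without the DR GR-Con male or female they were 0.55 and 0.12 for Ptn, 0.78 and 1.13 for Ltk, −0.79 and 0.24 for Mdk, and 0.17 and −0.21 for Ptprz1. In GR-KO the values, in the same order of genes, were 0.27 (SE 0.15), −0.98 (SE 0.43), −0.16 and 0.06.

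The share of astrocyte nuclei that held an Alk UMI is given as a description of the same difference. It was 5.37% (60 of 1117 nuclei, exact 95% binomial interval 4.12 to 6.86) and 4.18% (51 of 1220, 3.13 to 5.46) in the NR GR-Con male and female, and 27.5% (254 of 924, 24.6 to 30.5) and 26.7% (262 of 980, 24.0 to 29.6) in NR GR-KO. It was 15.1% (270 of 1794, 13.4 to 16.8) and 6.14% (61 of 993, 4.73 to 7.82) in DR GR-Con, and 20.8% (229 of 1099, 18.5 to 23.4) and 18.8% (255 of 1359, 16.7 to 20.9) in DR GR-KO. These intervals cover counting error in a library only, and depth differed, with median UMIs per astrocyte nucleus of 4889 to 12124. After thinning each nucleus to 1000 UMIs, for which 0 nuclei were too shallow, the shares were 0.94% to 1.23% in NR GR-Con, 5.02% to 5.91% in NR GR-KO, 1.16% to 4.39% in DR GR-Con and 5.74% to 7.14% in DR GR-KO. L6CT neurons, which had almost no Alk, gave 0.0993% to 0.240% thinned and 1.44% to 4.89% unthinned at median depths of 15198 to 31282 UMIs. Lamp5 interneurons gave 68.9% to 77.7% thinned. The thinned astrocyte shares therefore lay above those of L6CT neurons in every group and below those of Lamp5 interneurons. Unthinned, the NR GR-Con female (4.18%) lay inside the L6CT range. Oligodendrocytes, next to astrocytes in Alk level, gave 1.27% to 6.17% thinned. The NR GR-Con astrocyte shares lay below this range, and those of each other group overlapped it. For Ptn the thinned share of astrocyte nuclei was 50.4% to 58.1% in NR GR-Con, 72.1% to 74.5% in NR GR-KO, 54.0% to 69.8% in DR GR-Con and 73.3% to 75.8% in DR GR-KO, and that of L6CT neurons 1.48% to 4.17%.

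Markers of other cell types moved in astrocytes as well. The summed level of 4 inhibitory neuron markers (Gad1, Gad2, Slc32a1, Erbb4) was 54.1 to 57.7 CPM in NR GR-Con, 117 to 150 in NR GR-KO, 89.3 to 110 in DR GR-Con and 92.4 to 99.2 in DR GR-KO. Erbb4 alone made up 71.0% to 89.5% of this sum, at 38.4 to 42.2, 91.9 to 127, 75.8 to 98.1 and 79.8 to 88.1 CPM in the same order. The sum is not particular to interneurons. OPCs and Sst interneurons overlapped in Alk, and Alk per UMI of these 4 markers was 0.0437 to 0.0875 in OPCs and 0.0883 to 0.162 in Sst interneurons. Erbb4 made up 97.6% to 98.5% of the sum in OPCs. From NR to DR in GR-Con, Erbb4 was called higher (log2 fold change 1.10, edgeR adjusted p = 0.00574; not called by the quasi-likelihood F-test), whereas Gad1 (−0.20), Gad2 (−0.48) and Slc32a1 (−0.33) had negative values that were not called. The 4 OPC markers (Pdgfra, Cspg4, Vcan, Tnr) summed to 80.1 to 84.2, 123 to 177, 88.1 to 119 and 193 to 199 CPM in the same order, and the 5 excitatory markers to 187 to 243, 297 to 324, 147 to 210 and 171 to 179. The 4 oligodendrocyte markers summed to 97.7 to 118, 133 to 170, 63.2 to 81.3 and 86.3 to 93.9 CPM. None of these markers was at 0. Of the 4 inhibitory markers 2 were called higher in NR GR-KO astrocytes (Erbb4, log2 fold change 1.37, and Gad1, 0.80) and 0 in the DR genotype contrast. Of the OPC markers only Vcan was called in either (1.55 in NR and 1.32 in DR), and in DR the quasi-likelihood F-test did not call it. Vcan was also called higher from NR to DR in both genotypes, but in GR-Con neither the F-test nor DESeq2 called it. Vcan was named by the study on these data.

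Gad2 and Pdgfra, single markers of interneurons and OPCs chosen after their values were seen, are given beside Alk. Gad2 measured 6.44 and 5.97 CPM in NR GR-Con astrocytes and 8.53 and 11.8 in NR GR-KO, then 3.77 and 5.27 in DR GR-Con and 5.13 and 3.06 in DR GR-KO. Alk UMIs per Gad2 UMI ran from 0.372 to 2.51 over the libraries of the Lamp5, Pvalb, Sst and Vip types, and from 1.73 to 23.8 over astrocyte libraries. Both NR GR-Con libraries and the DR GR-Con female, 3 of the 8, lay inside the interneuron range. Alk per UMI of all 4 inhibitory markers was 0.0112 to 0.162 in the interneuron types and 0.141 to 0.988 in astrocytes, which also overlap. Pdgfra, a growth factor receptor of OPCs, measured 1.49 to 3.97 CPM in astrocytes, and Alk per Pdgfra was 0.328 to 0.568 in OPCs and 4.31 to 49.9 in astrocytes. Per UMI of all 4 OPC markers it was 0.0252 to 0.0432 and 0.122 to 0.559. Leaving out the 25% of astrocyte nuclei richest in neuron markers gave log2 fold changes for Alk of 2.59 in NR (no test) and 1.33 in DR. How far RNA from other cells contributes to the Alk level of astrocytes was not tested beyond these values.

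Within a library, astrocyte nuclei with a vector UMI (eGFP or Cre) did not have more Alk than those without. In GR-KO, positive and negative nuclei measured 22.0 and 77.1 CPM in the NR male, 55.4 and 60.9 in the NR female, 60.2 and 95.6 in the DR male, and 65.1 and 73.4 in the DR female. Alk was lower in the positive nuclei of 4 of 4 libraries, with a mean difference of −0.68 in log2(CPM + 1) (SD 0.76, n = 4, exact two-sided permutation p = 0.125, the smallest that 4 pairs allow). In GR-Con it was lower in 4 of 4 as well (−1.21, SD 1.63, exact permutation p = 0.125), but the NR GR-Con female held 0 Alk UMIs in its positive nuclei (−3.56), and with a pseudocount of 5 the mean was −0.65. The positive nuclei numbered 51 to 140 per library. For Ptn the differences were −0.14 in GR-KO (lower in 3 of 4, exact permutation p = 0.25) and −0.11 in GR-Con (lower in 3 of 4, exact permutation p = 0.375). All these nuclei came from a GFP-negative sort, and its effect on their vector RNA was not tested.

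The wider pathway was followed in astrocytes through 6 lists with 53 genes, of which 49 were tested in each genotype contrast. The lists were chosen with earlier results of these data known. Their calls and p-values are therefore a description in both rearings, and nothing is read from the shares called. In NR, 6 were called, 2 higher and 4 lower, each of them also under every alternative run. In DR 3 were called, 1 higher and 2 lower, whereas the quasi-likelihood F-test called 0 and DESeq2 called 2. The shares of all genes called by edgeR were the 7.11% and 0.736% given above. Spry1, a feedback inhibitor of receptor tyrosine kinase signalling, measured 1.51 and 3.14 CPM in NR GR-Con, 19.0 and 16.5 in NR GR-KO, 2.83 and 3.78 in DR GR-Con and 14.3 and 15.6 in DR GR-KO. All 4 GR-KO libraries lay above all 4 GR-Con libraries. The log2 fold change was 2.87 in NR (SE 0.28, adjusted p = 2.76e-22) and 2.21 in DR (SE 0.32, adjusted p = 1.66e-08). In DR it was not called without the DR GR-KO female (2.12, adjusted p = 0.0672) or by the quasi-likelihood F-test (adjusted p = 0.113). Without the DR GR-Con male or female it was 2.03 or 2.40, both called. The other ERK feedback and target genes tested were not called in either contrast, and the list's median log2 fold change was 0.03 in NR and 0.02 in DR.

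Sdc4 and Cntn1 were called lower in both rearings. Sdc4, a heparan sulphate co-receptor that binds both growth factors, measured 143 and 130 CPM in NR GR-Con and 65.0 and 69.3 in NR GR-KO, and 109 and 118 in DR GR-Con and 64.3 and 68.2 in DR GR-KO. It fell by 1.09 on the log2 scale in NR (SE 0.14, adjusted p = 1.53e-11) and by 0.75 in DR (SE 0.20, adjusted p = 0.0203). Cntn1, a neural adhesion molecule that binds PTPRZ1, measured 210 and 248 CPM in NR GR-Con, 73.5 and 87.3 in NR GR-KO, 249 and 159 in DR GR-Con and 57.7 and 82.8 in DR GR-KO. It fell by 1.57 in NR (SE 0.17, adjusted p = 8.4e-18) and by 1.52 in DR (SE 0.31, adjusted p = 0.000675). In DR neither was called without the DR GR-KO male (Sdc4 −0.69, Cntn1 −1.26) or female (−0.81 and −1.82). Without the DR GR-Con male or female both stayed called, at −0.78 and −0.72 for Sdc4 and −1.11 and −1.81 for Cntn1, and the quasi-likelihood F-test called 0 of the 3 genes. DESeq2 did not call Sdc4 in DR (adjusted p = 0.0716).

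Tnc, an extracellular matrix ligand of PTPRZ1, measured 66.4 and 83.0 CPM in NR GR-Con, 225 and 217 in NR GR-KO, 192 and 77.3 in DR GR-Con and 328 and 271 in DR GR-KO. As for Alk, the DR GR-Con male lay close to the GR-KO libraries. Tnc rose in NR (log2 fold change 1.50, SE 0.16, adjusted p = 8.4e-18), whereas the DR value of 1.16 (SE 0.42) did not pass the test (adjusted p = 0.292). It did without the DR GR-Con male (2.00, adjusted p = 1.35e-42) or female (0.64, adjusted p = 0.00462) and with a sex term (1.31, adjusted p = 0.00022). Itgav, an integrin subunit named as a pleiotrophin receptor (−0.79 in NR, adjusted p = 7.52e-07), and Pik3r1, the regulatory subunit of PI3-kinase (−0.80, adjusted p = 3.85e-05), fell in NR and were not called in DR (−0.72 and −0.52). Without the DR GR-Con male both were called in DR (Itgav −0.92, Pik3r1 −0.61), and Itgav also without the DR GR-Con female (−0.49), with a sex term (−0.71) and with all 8 libraries in 1 fit (−0.72). Tnc and Cntn1 were also named by the study, from its bulk RNA-seq of astrocytes.

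The list medians between genotypes, in NR and DR, were 0.06 and 0.10 for the co-receptors (2 and 1 called of 9), 0.10 and 0.17 for the partners of Ptprz1 (2 and 1 of 8), 0.07 and 0.01 for its substrates (0 of 6 in both), and −0.08 and −0.03 for the adaptors and kinases (1 and 0 of 15), beside 0.00 and −0.01 over all genes. Of the cytokine ligands only Alkal2 could be tested, at 1.23 to 2.09 CPM, and it was not called. From NR to DR in GR-Con astrocytes 0 of 49 pathway genes were called by edgeR, where 0.147% of all genes were, with 3 at an unadjusted p under 0.05 and 0 called by the quasi-likelihood F-test or DESeq2. In GR-KO, where 2.85% of all genes were called, 1 of 50 was, Tnc (0.51, SE 0.14, adjusted p = 0.0158), which was not called without the DR GR-KO male (0.40), the DR GR-KO female (0.62) or the NR GR-KO female (0.49), or with all 8 libraries in 1 fit (0.52, adjusted p = 0.865). The ERK feedback and target genes had a median of −0.25 in GR-Con (0 of 10 called) and −0.21 in GR-KO (0 of 11 called), beside −0.00 and −0.01 over all genes, and the co-receptors, partners, substrates and adaptors had medians of −0.02 to 0.10.

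**Figure D3:**
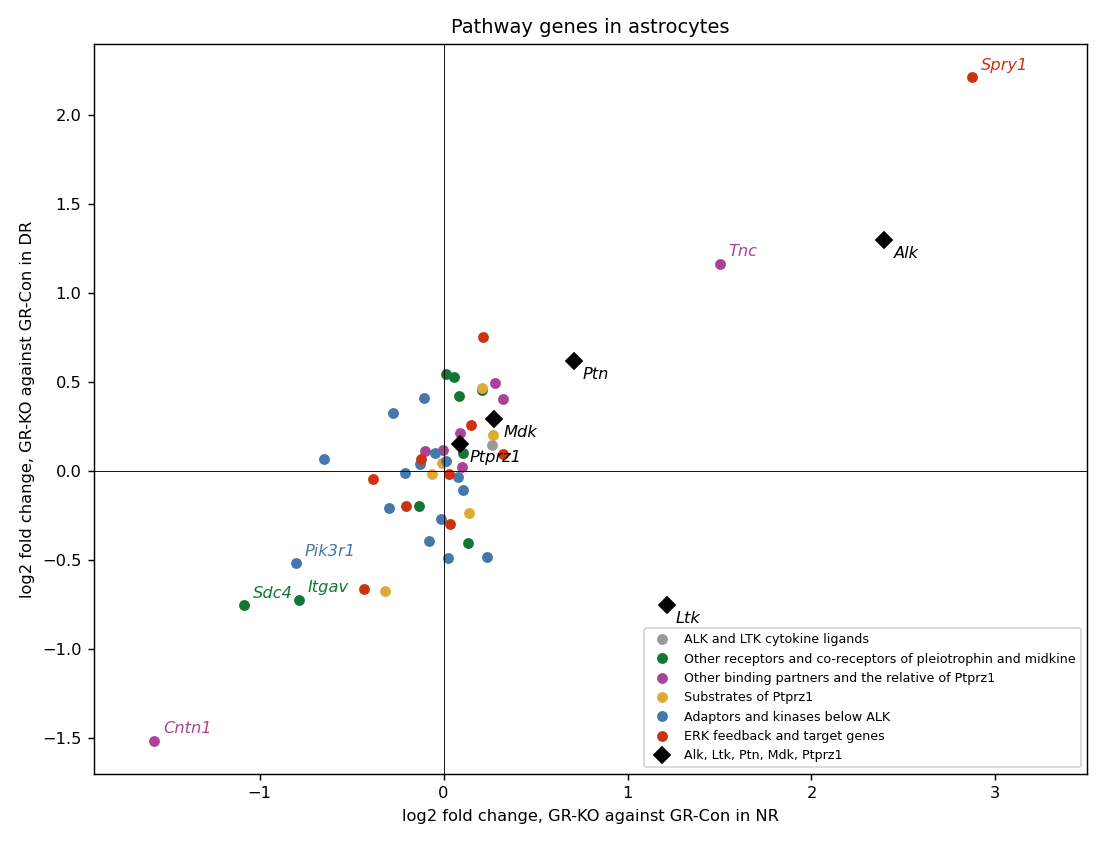
Log2 fold change of GR-KO against GR-Con in astrocytes in NR (horizontal axis) and in DR (vertical axis), 1 point a gene, coloured by list, with the 5 members as black diamonds and labels on genes called in either contrast. Spry1 (2.87 and 2.21) and Alk (2.40 and 1.29) lie at the upper right, Cntn1 (−1.57 and −1.52) at the lower left, and most pathway genes near 0; the axes rest on separate libraries.

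Outside astrocytes the number of member values that passed the test between genotypes depended on the fit. In NR, 2 of 66 gene and cell type pairs over 16 types were called, where 0.37% of all pairs were. A sex term gave 10, but the 0.37% belongs to the fit without that term. Ptprz1 in L4 neurons went from 7.01 and 5.49 CPM to 10.5 and 11.96 (log2 fold change 0.85, SE 0.20, adjusted p = 0.0127). Ptn in L5PT neurons went from 47.2 and 40.1 to 65.4 and 64.4 (0.57, SE 0.16, adjusted p = 0.0296), with 59 nuclei in the NR GR-KO female. Neither pair of groups overlapped, and neither call held without the NR GR-Con male (adjusted p = 0.129 and 0.678) or female (0.924 and 1). The quasi-likelihood F-test called neither. In the interneurons and OPCs that hold most Alk, its genotype difference was not called in NR.

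In DR, 2 of 59 pairs over 14 types were called, where 0.496% of all pairs were. Ptprz1 in L2/3 neurons was lower in GR-KO, at 10.6 and 9.49 CPM against 15.4 and 19.8 (log2 fold change −0.75, SE 0.19, adjusted p = 0.027). Mdk in L6CT neurons was higher, at 1.96 and 1.45 CPM against 0.75 and 0.61 (1.32, SE 0.37, adjusted p = 0.0404), on 22 to 71 UMIs in a library. Both calls were lost without the DR GR-KO male (Ptprz1 −0.81, Mdk 1.13), the DR GR-KO female (−0.68 and 1.50) or the DR GR-Con female (−0.57 and 1.14), and under the quasi-likelihood F-test.

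The genotype difference itself differed between rearings in 2 of 62 pairs over 14 types, against 0.166% of all pairs. With a sex term it did in 4, but the 0.166% belongs to the fit without that term. Ptprz1 in L2/3 neurons measured 8.52 and 6.12 CPM in NR GR-Con, 15.1 and 11.0 in NR GR-KO, 15.4 and 19.8 in DR GR-Con and 10.6 and 9.49 in DR GR-KO. The genotype difference in NR (0.80) exceeded that in DR (−0.75) by 1.55 on the log2 scale (SE 0.32, adjusted p = 0.00174), and the call was lost without the NR GR-Con female (1.34, adjusted p = 0.0795) or the DR GR-KO female (1.47, adjusted p = 0.0936). Alk in L4 neurons measured 1.55 and 1.09 CPM in NR GR-Con, 2.84 and 2.37 in NR GR-KO, 2.25 and 1.61 in DR GR-Con and 1.34 and 1.02 in DR GR-KO. NR GR-KO was the highest group and did not overlap the others. The difference between rearings was 1.65 (SE 0.42, adjusted p = 0.0426), and it was called in 2 of the 8 fits that left out a library (without the NR GR-KO female, 1.78, and without the DR GR-Con female, 1.88). The summed inhibitory markers in L4 nuclei were likewise highest in NR GR-KO, at 11.9 to 16.5 CPM in NR GR-Con, 34.3 to 42.3 in NR GR-KO, 16.3 to 28.4 in DR GR-Con and 15.6 to 19.2 in DR GR-KO, none of the 4 being at 0 and Erbb4 making up 68.8% to 84.4% of the sum. Their part in the Alk value was not tested. The quasi-likelihood F-test called neither gene here.

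In GR-Con mice Ptprz1 was higher after dark rearing in several neuron types. Of 59 pairs over 14 types 7 were called, where 2.4% of all pairs were, and 5 of the 7 were Ptprz1. L2/3 neurons went from 8.52 and 6.12 CPM to 15.4 and 19.8 (log2 fold change 1.22, SE 0.22, adjusted p = 3.1e-06) and L5IT neurons from 25.7 and 18.4 to 40.8 and 65.8 (1.27, SE 0.25, adjusted p = 3.52e-05). These held in each fit that left out 1 library and, alone of the 7 calls, under the quasi-likelihood F-test. Ptprz1 also rose in L6IT (1.08, adjusted p = 0.0263), L5NP (0.80, adjusted p = 0.0284) and Pvalb (0.75, adjusted p = 0.0283) cells. The estimate was positive in 14 of 14 types, which share the same 4 mice. The L6IT call was lost without the NR GR-Con male (1.11) or female (1.04), the L5NP call without either of these (0.81 and 0.80) or the DR GR-Con male (0.45), and the Pvalb call without the NR GR-Con female (0.50) or the DR GR-Con male (0.52). Astrocyte markers summed to 268 to 298 CPM in NR and 222 to 258 in DR in L2/3 nuclei and to 676 to 690 and 513 to 527 in L5IT nuclei. OPC markers summed to 448 to 470 and 463 to 495 in L2/3 and to 364 to 382 and 453 to 482 in L5IT, and the part of either in the Ptprz1 values was not tested.

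Alk moved in 2 types. In L5PT neurons it fell from 47.6 and 45.8 CPM in NR GR-Con to 20.7 and 9.17 after dark rearing, a log2 fold change of −1.65 (SE 0.34, adjusted p = 0.000231). Each fit that left out a library called it as well, with −2.39 without the DR GR-Con male. Inhibitory markers in L5PT nuclei summed to 52.2 to 62.5 CPM in NR and 30.6 to 32.0 in DR, with Erbb4 at 75.4% to 92.4% of the sum over all groups, and their part was not tested. In Sst interneurons Alk rose from 215 and 215 CPM to 474 and 309 (0.86, SE 0.20, adjusted p = 0.00665), called only when the DR GR-Con female was left out (1.14) among the 4 such fits, the others giving 0.86, 0.85 and 0.51.

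In GR-KO mice Ptn was lower after dark rearing in several neuron types. Of 68 pairs over 17 types 15 were called, 2 higher and 13 lower, where 3.71% of all pairs were, and 7 of the 13 were Ptn. L6CT neurons, a deep-layer type with little Ptn, went from 40.8 and 32.6 CPM to 20.6 and 18.6 (log2 fold change −0.89, adjusted p = 5.56e-05). L2/3 neurons went from 269 and 282 CPM to 133 and 178 (−0.78, adjusted p = 0.00781). Lamp5 interneurons went from 63.3 and 51.1 CPM to 25.8 and 33.3 (−0.91, adjusted p = 0.00175). The groups did not overlap in any of these types. Ptn also fell in L5IT (−0.75, adjusted p = 0.00839), L5PT (−0.66, adjusted p = 0.0062), L6IT (−0.62, adjusted p = 0.00254) and Vip (−0.76, adjusted p = 0.00885) cells. None of the 7 was called by the quasi-likelihood F-test or without the DR GR-KO male, with values of −0.93 (L6CT), −0.56 (L2/3), −0.70 (Lamp5), −0.61 (L5IT), −0.65 (L5PT), −0.49 (L6IT) and −0.67 (Vip). Without the DR GR-KO female, L6CT (−0.85), L5IT (−0.90), L5PT (−0.67) and Vip (−0.86) were not called, nor was L2/3 without the NR GR-KO female (−0.71) or Lamp5 without the NR GR-KO male (−0.75). Astrocyte markers, whose cells are rich in Ptn, summed to 915 to 1009 CPM in NR and 703 to 812 in DR in L6CT, to 312 to 324 and 260 to 287 in L2/3, and to 212 to 236 and 163 to 199 in Lamp5. They were thus lower where Ptn was lower, and their part was not tested. Depth was lower as well, with median UMIs per nucleus of 22828 and 29223 in NR GR-KO and 14928 and 14861 in DR GR-KO. Its part was not tested either.

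Of the receptor genes, 3 Alk, 2 Ltk and 3 Ptprz1 values were called in the same contrast. Alk in OPCs rose from 238 and 209 CPM to 313 and 302 (log2 fold change 0.50, SE 0.13, adjusted p = 0.00776), held under the quasi-likelihood F-test, and was called in 1 of the 4 fits without a library, the one without the NR GR-KO male (0.59; the others gave 0.42, 0.49 and 0.52). Alk fell in L2/3 neurons from 3.49 and 3.43 CPM to 1.35 and 1.64 (−1.16, adjusted p = 0.000229) and in L4 neurons (−1.09, adjusted p = 0.00334), types in which its level is near the lowest. The summed inhibitory markers went from 29.7 to 30.6 CPM to 12.7 to 18.3 in L2/3, with Erbb4 at 68.0% to 86.2% of the sum over all groups. Without the DR GR-KO male neither was called (adjusted p = 0.212 and 0.0992), and without the DR GR-KO female L4 was not (−0.91). Ltk, which excitatory neurons carry, fell in L5IT (−0.62, adjusted p = 0.0437) and L4 (−0.43, adjusted p = 0.0459) and was negative in 8 of 8 excitatory types.

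Ptprz1 fell in L6CT (−0.73, adjusted p = 0.0315) and L4 (−0.60, adjusted p = 0.0193) and rose in oligodendrocytes, from 81.6 and 145 CPM to 201 and 211 (0.89, SE 0.24, adjusted p = 0.0123). OPC markers in oligodendrocytes summed to 1537 to 2500 CPM in NR GR-KO and 3436 to 3739 in DR GR-KO, and their part was not tested. The oligodendrocyte value was 0.54 without the NR GR-KO male and 1.35 without the NR GR-KO female. The Ltk and Ptprz1 calls were all lost without the DR GR-KO male, with values of −0.69, −0.42, −0.87, −0.58 and 0.95, or without the female, with −0.55, −0.45, −0.60, −0.62 and 0.84, in the order L5IT and L4 for Ltk and L6CT, L4 and oligodendrocytes for Ptprz1. Ltk in L4 was also lost without the NR GR-KO male (−0.41), and Ptprz1 in L6CT (−0.50) and L4 (−0.52) without the NR GR-KO female.

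**Figure D4:**
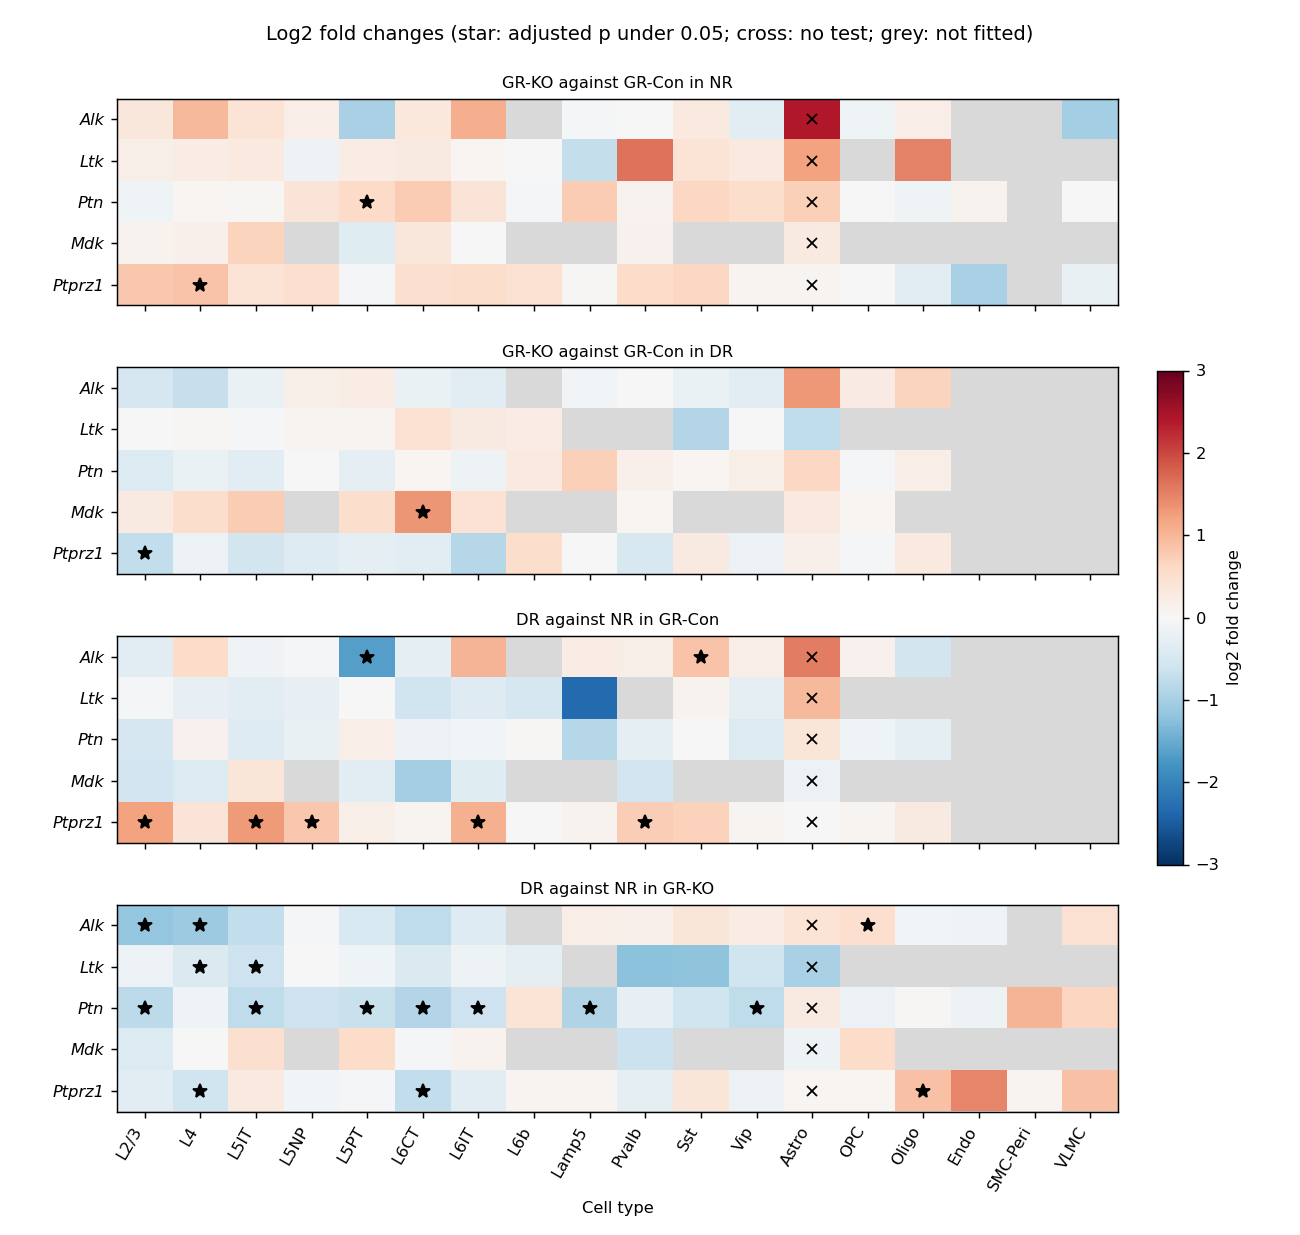
Log2 fold changes (colour, red higher, blue lower) of the 5 genes (rows) by cell type (columns) in 4 contrasts, with a star on called pairs, a cross where no test is read and grey where no fit was made. Stars lie on Ptprz1 in neurons for DR against NR in GR-Con (5 of 7 calls) and on Ptn in neurons for DR against NR in GR-KO (7 of 15 calls).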

How the data were processed

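V1 was taken from 8 mice at postnatal day 21 for snRNA-seq, with 1 male and 1 female library in each of 4 groups. Per the study's methods, DRAQ5-positive, GFP-negative nuclei were sorted, reads were aligned and UMIs counted with Cell Ranger 8.0.1 on mm10 with eGFP added, nuclei with under 500 or over 70000 gene counts and DoubletFinder doublets were removed, and cell types were assigned from Seurat 5.3.0 clusters. The authors deposited raw UMI counts of 26711 features in 102330 nuclei with a cell type and library name for each.

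UMIs were summed per library and deposited cell type. Contrasts were fitted with edgeR 4.0.16 (R 4.3.3; filterByExpr, TMM, likelihood ratio test, two-sided) in cell types with at least 10 nuclei in each library of the fit. The study's methods name this test for the NR genotype contrast, and the filter, scaling and other contrasts were chosen here. Standard errors come from the fitted coefficients, and Benjamini-Hochberg adjustment ran over all genes tested in a cell type, with calls at an adjusted p under 0.05. Alternatives were the quasi-likelihood F-test, DESeq2 1.42.0, RLE scaling, no filter on low counts, a sex term, all 8 libraries in 1 fit, each library left out, and astrocytes without the 25% richest in neuron markers. On simulated counts for astrocytes and OPCs the likelihood ratio test recovered more of the changed genes than the quasi-likelihood F-test, but its share of false calls exceeded the threshold, and most in astrocytes, so calls that the F-test does not share are less secure. With 2 mice a group, p-values rest on few degrees of freedom, and intervals of shares cover counting error only.

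The 5 members and the pathway and marker lists were chosen with earlier results of these data known. Between groups, the astrocyte values of the members are therefore tested in the DR genotype contrast alone, the one that uses no NR library. The list and marker genes are given with tests in the genotype and rearing contrasts. Those calls and p-values are a description. Genes named were the members, list genes called in the contrast described (up to 4 a list, by fold change), and the 3 genes most correlated with each member. Other genes given (Nr3c1, Alkal1, Alkal2, Gad2, Pdgfra) fall outside this rule and were chosen after their values were seen.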

Additional observations from a re-analysis of the deposited data

Results flagged for a closer look

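A pair of results was singled out because the genotype difference itself differed between the rearings, tested as an interaction in all 8 libraries. For Ptprz1 in L2/3 neurons, the NR value exceeded the DR value by 1.55 on the log2 scale (SE 0.32, edgeR adjusted p = 0.00174), with GR-KO above GR-Con in both NR libraries and below it in both DR libraries. For Alk in L4 neurons the excess was 1.65 (SE 0.42, edgeR adjusted p = 0.0426), at 1.02 to 2.84 CPM. Most fits that left out a library did not call Alk, and some did not call Ptprz1, as given above. The summed inhibitory markers in L4 nuclei were also highest in NR GR-KO, and their part was not tested. The quasi-likelihood F-test called neither gene.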

How the results depend on the processing

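The counts of called pairs outside astrocytes depended on the test more than on the scaling. In the order genotype in NR, genotype in DR, rearing in GR-Con, rearing in GR-KO and interaction, they were 2, 2, 7, 15 and 2 as reported. They were 0, 0, 2, 1 and 0 with the quasi-likelihood F-test, 1, 1, 4, 9 and 1 with DESeq2, and 2, 2, 7, 14 and 2 with RLE scaling. Without the filter on low counts they were 1, 1, 7, 13 and 1, and with a sex term 10, 3, 10, 17 and 4. With all 8 libraries in 1 fit the first 4 were 0, 1, 3 and 10. Leaving out 1 library gave 0 to 14, 0 to 11, 4 to 12, 1 to 22 and 0 to 5, the lone library of an arm being assumed to vary like the others. Of the 28 calls, the F-test kept 3: Ptprz1 in L2/3 and L5IT from NR to DR in GR-Con, and Alk in OPCs in GR-KO. The sex term kept all 28, and none changed direction. The shares over all pairs given above belong to the fits as reported and not to these alternatives.

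In astrocytes in DR, Alk was called with a sex term (1.63) and without the DR GR-Con male (2.75) or female (0.58), and Ptn with a sex term (0.63) and without the DR GR-Con female (0.85). Over the fits that left out a library Alk ranged from 0.58 to 2.75, Ptn from 0.42 to 0.85, Mdk from -0.13 to 0.91 and Ptprz1 from -0.0224 to 0.35, so the sign of the last pair was not settled. From NR to DR, Mdk ranged from -0.79 to 0.24 in GR-Con and from -0.35 to 0.0345 in GR-KO over such fits, and was 0.0308 in GR-KO without the nuclei richest in neuron markers. Ptprz1 in GR-Con ranged from -0.21 to 0.17, and was 0.0013 with DESeq2 or RLE scaling. Mdk in NR turned to -0.08 without the nuclei richest in neuron markers. The cause was not tested in any of these. No paired analysis was possible because the deposited library names give the sex and not the replicate number. The libraries can be paired by sex alone, which the sex term does. On the scale of means over nuclei the highest type of each member was the same, but Ptn moved to 2240 in smooth muscle cells and pericytes and to 1723 in VLMC, above astrocytes at 1379. A pseudocount of 5 moved Alk in the vector comparison in GR-Con from -1.21 to -0.65, and kept the direction of all 4 means. Genes under about 2 CPM in astrocytes, as Ltk and Alkal2, are limited by depth.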
